A study of Mus musculus with 8 samples.

Results

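The genes described here are mouse genes that carry a provisional name, a Gm number or a clone name ending in Rik, and whose read counts separated hypoxic from normoxic hypothalamus without overlap. Genes were chosen by their measured CPM in these libraries: a gene was taken when its mean over the 8 libraries was at least 1 CPM (the count divided by the library's total, times 1000000) and when all 4 hypoxic values lay above, or all 4 below, the 4 normoxic values. Of the 55487 genes counted, 29466 had such a name, 1575 of those reached 1 CPM, and 201 of the 1575 separated the groups, 79 with higher and 122 with lower values in hypoxia. The measured contrast chose these genes, so their levels and fold changes are a description and carry no test.

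RNA came from the hypothalamus of C57BL/6J mice that spent 2 hours either in a chamber at 7% oxygen (hypoxia, 4 libraries) or in room air, labelled as 21% oxygen (normoxia, 4 libraries). Libraries were made with a stranded kit for polyadenylated RNA. The labels used here give no age or sex, and the series describes each group's libraries as biological replicates, so every p-value below measures the spread between these 8 libraries. In whole tissue, fewer cells of a type and less RNA per cell cannot be told apart.

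A Gm number is a placeholder that the mouse nomenclature gives to a predicted gene model, and a Rik name marks a gene first seen as a full-length cDNA clone. Such names cover long intergenic RNAs (lincRNA), RNAs antisense to a coding gene, processed copies of mRNAs (pseudogenes), precursors of microRNAs and small nucleolar RNAs, and coding genes that have not been given a functional name. They also cover models of the class TEC, a provisional class that awaits experimental evidence, mostly unspliced stretches of transcript evidence that often lie in the introns or beyond the 3′ ends of larger genes. MicroRNAs silence mRNAs mainly through pairing of the seed, the bases from position 2 to position 8, and genes of the miR-29 family are transcribed inside long noncoding precursors such as the one described next.

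Among the 201 genes, A330023F24Rik, 5330434G04Rik and E130102H24Rik contain named microRNA genes, and the mature sequences are shown because they are the best understood products of these loci. They are given 5′ to 3′ from RefSeq (GRCm38.p6), with the seed in capitals. The Mir29b-2 and Mir29c hairpins lie in an exon of A330023F24Rik, Mir101a in an exon of E130102H24Rik, and Mir325 in an intron of 5330434G04Rik. The 3p products of Mir29b-2 and Mir29c share the seed AGCACCA, and the other 6 products each have a seed of their own.
mmu-miR-29b-2-5p: cUGGUUUCacaugguggcuuagauu
mmu-miR-29b-3p: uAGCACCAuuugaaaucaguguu
mmu-miR-29c-5p: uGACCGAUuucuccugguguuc
mmu-miR-29c-3p: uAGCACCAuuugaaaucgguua
mmu-miR-325-3p: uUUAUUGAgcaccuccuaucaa
mmu-miR-325-5p: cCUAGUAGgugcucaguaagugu
mmu-miR-101a-3p: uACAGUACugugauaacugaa
mmu-miR-101a-5p: uCAGUUAUcacagugcugaugc

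A330023F24Rik (chromosome 1, 194976375 to 195037904, plus strand, GRCm38) is the precursor of miR-29b-2 and miR-29c. It was counted at 75.4, 67.7, 75.8 and 102 CPM in hypoxia 1 to 4 and at 122, 136, 152 and 136 CPM in normoxia 1 to 4. The hypoxic mean of 80.2 ± 14.9 CPM (SD, n = 4) stood against 137 ± 12.05 CPM (SD, n = 4) in normoxia, and hypoxia 4 was the hypoxic library closest to the normoxic ones. The fitted log2 fold change, hypoxia relative to normoxia, was -0.74 ± 0.12 (SE). The gene overlaps Cd46, a complement regulator on the opposite strand, over 1079 exonic bases. Cd46 itself was counted at 13.0, 11.99, 12.5 and 11.4 CPM in hypoxia and at 11.6, 11.3, 11.1 and 12.7 CPM in normoxia, with overlapping groups, and did not pass the whole-table test (log2 0.09 ± 0.08 SE, edgeR adjusted p = 0.588). The antisense gene Gm16897, which shares 426 exonic bases with it on the opposite strand, gave 0.383, 0.789, 0.526 and 0.447 CPM against 0.748, 0.636, 0.941 and 0.830 CPM, with overlapping groups, and did not pass the test either (log2 -0.53 ± 0.27 SE, edgeR adjusted p = 0.322).

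The other hosts of named microRNA genes, 5330434G04Rik and E130102H24Rik, showed smaller differences in the same direction. Gm20632, Gm20633 and 4930432K21Rik, which overlap models annotated as microRNA genes under Gm names, were higher in hypoxia. The fitted differences of Gm20632 and Gm20633, given below, were larger than that of A330023F24Rik. 5330434G04Rik, the lincRNA around Mir325, gave 11.4, 11.8, 12.7 and 11.7 CPM in hypoxia and 15.4, 14.8, 14.7 and 14.3 CPM in normoxia (log2 -0.29 ± 0.07 SE). E130102H24Rik, the host of Mir101a, gave 3.26, 3.31, 3.58 and 3.97 CPM against 4.86, 4.03, 4.18 and 4.01 CPM (log2 -0.25 ± 0.13 SE), and hypoxia 4 lay just under the lowest normoxic library. Mature microRNAs were not measured, since these libraries hold polyadenylated RNA.

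Hosts of small nucleolar RNAs, which guide chemical modification of ribosomal RNA from within introns, lay on both sides. 2410006H16Rik, whose introns hold Snord49a, Snord49b and Snord65, gave 14.7, 14.9, 15.5 and 12.1 CPM in hypoxia and 9.91, 10.8, 9.71 and 11.6 CPM in normoxia (log2 0.47 ± 0.10 SE). Hypoxia 4 again stood closest to normoxia. 2700038G22Rik, the host of Snord93, gave 0.622, 0.736, 0.860 and 1.34 CPM in hypoxia and 1.54, 3.87, 1.77 and 1.43 CPM in normoxia (log2 -1.24 ± 0.39 SE, and -0.78 without normoxia 2). Normoxia 2 stood far above the 3 other normoxic libraries of this gene.

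The 201 genes were mostly scarce. Their median mean level was 3.38 CPM, 124 lay under 5 CPM and 47 reached 10 CPM, and 1 count was worth 0.0461 to 0.0588 CPM depending on the library. The median log2 fold change was 0.63 among the 79 higher genes (0.12 to 2.23) and -0.51 among the 122 lower genes (-1.29 to -0.04), and 25 genes, 17 of them higher, differed by at least 1 on the log2 scale. In the edgeR quasi-likelihood test over all 17047 tested genes with Benjamini-Hochberg adjusted p under 0.05, 33 of the 201 were called, 21 higher and 12 lower. Of all tested genes 2.15% were called, 0.915% higher and 1.23% lower, and since the same contrast chose the members nothing is read from their 16.4%. With library size as the only scaling the calls were 19 higher and 19 lower. Without hypoxia 4 they were 24 and 23, without normoxia 2 they were 27 and 16, and without any other single library (hypoxia 1, 2 or 3, normoxia 1, 3 or 4) 1 or 2 higher and 0 lower genes were called. The calls over all tested genes moved in the same way. They were 156 higher and 210 lower in the main fit and 146 and 342 with library size only. Without hypoxia 4 they were 236 and 457, and without normoxia 2 329 and 346. Without any other single library they were 24 to 42 higher and 2 to 8 lower.

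The share of genes that separated the groups was near that of the table as a whole. Separation held for 14.0% of all 15491 genes at 1 CPM or more (3.82% higher, 10.2% lower) and for 12.8% of the Gm and Rik genes (5.02% higher, 7.75% lower). TMM scaling gave 91 higher and 107 lower Gm and Rik genes, of which 186 were among the 201, and DESeq2 size factors gave 94 and 104, of which 183 were among them. Over all genes the same scalings moved the split from 592 higher and 1577 lower to 902 (5.82%) and 1258 (8.12%) with TMM and to 964 (6.23%) and 1207 (7.80%) with DESeq2. None of the 201 fitted fold changes changed sign under any scaling or any omission of a library that was run.

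**Figure D1:**
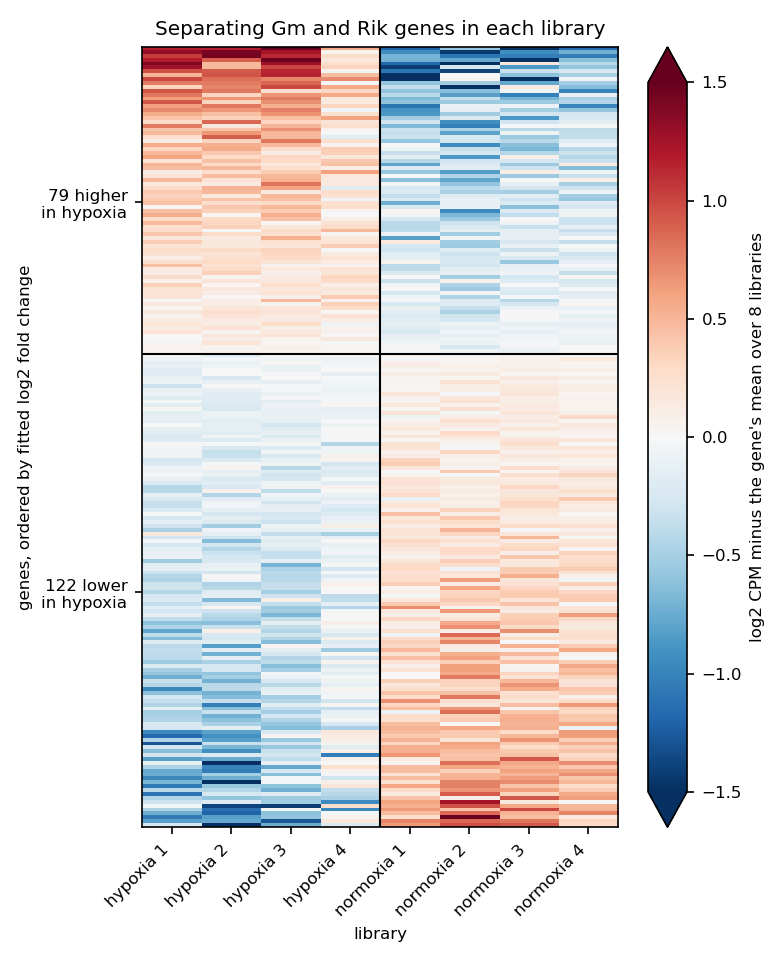
Heat map of the 201 genes (vertical axis, ordered by fitted log2 fold change) in the 8 libraries (horizontal axis). Colour is log2 CPM minus the gene's mean over the 8 libraries, the horizontal line divides the 79 higher from the 122 lower genes, and the hypoxia 4 column is paler than those of hypoxia 1 to 3.

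Hypoxia 4 was the hypoxic library nearest the normoxic group in 42 of the 79 higher genes (53.2%) and in 73 of the 122 lower genes (59.8%). Of 13916 genes with other names 14.1% separated the groups (3.69% higher, 10.5% lower), and hypoxia 4 was nearest in 56.7% of those 513 higher and 60.1% of those 1455 lower genes. The higher genes lay on average 0.39, 0.37 and 0.42 log2 units above their 8-library mean in hypoxia 1, 2 and 3 and 0.18 above it in hypoxia 4. The 14 genes of a list of hypoxia-inducible factor targets lay 0.44, 0.46, 0.54 and 0.11 above theirs in the same libraries. Normoxia 2 was the normoxic library farthest from hypoxia in 33 of the 79 (41.8%) and 50 of the 122 genes (41.0%). Among the genes with other names it was farthest in 47.8% of the higher and 47.8% of the lower ones.

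**Figure D2:**
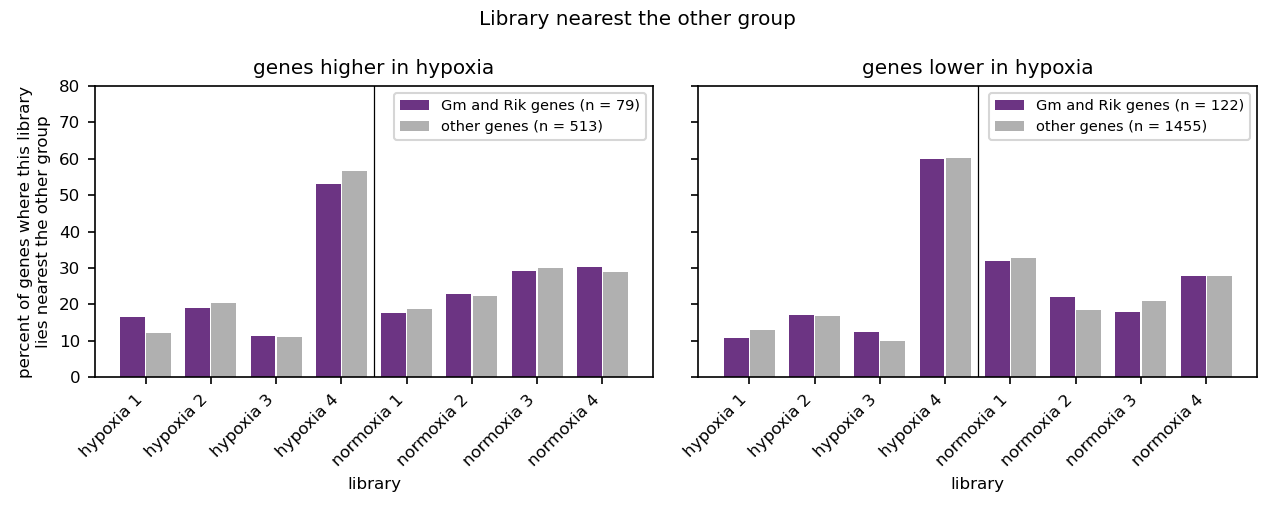
Percent of separating genes (vertical axis) for which each library (horizontal axis) was the one of its group nearest the other group, for Gm and Rik genes (purple) and other genes (grey). Within each group the bars add up to the whole set, and hypoxia 4 takes 53.2% of the higher and 59.8% of the lower Gm and Rik genes.

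Library totals ran from 16994473 to 21694383 counts. All 12 hypothalamic markers on the list were tested, with none at 0, and their summed level was 745 to 868 CPM in hypoxia and 449 to 919 CPM in normoxia, lowest in normoxia 2. Cortical and hippocampal markers summed to 515 CPM in normoxia 2, against 103 to 171 CPM in the other normoxic and 86.1 to 163 CPM in the hypoxic libraries, and 1 of 9 tested was called (lower). Pituitary markers summed to 89.8 CPM in normoxia 2 and 59.1 CPM in hypoxia 4, with Lhb at 0 throughout, and 0 of 4 tested were called. Of the hypoxia-inducible factor targets 10 of 14 were called higher (median log2 0.57), and of the glucocorticoid-responsive genes 6 of 12 (median log2 0.78). Neither list had a gene called lower, and 0.915% of all tested genes were called higher. The glucocorticoid-responsive genes summed to 738 CPM in normoxia 2 against 498 to 516 CPM in the other normoxic libraries. None of 10 thalamic, 10 striatal, 6 choroid plexus and 5 red blood cell markers tested was called, but their sums also varied between libraries. Thalamic markers summed to 567 to 692 CPM in hypoxia and 503 to 991 CPM in normoxia (median log2 -0.41). Striatal markers summed to 880 to 1402 CPM and 538 to 1319 CPM (median log2 0.37). Choroid plexus sums were 74.9 to 90.6 CPM and 50.4 to 111 CPM, and red blood cell sums 69.9 to 242 CPM and 172 to 284 CPM. The part of these differences in the values of the Gm and Rik genes was not tested.

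TEC models were the most frequent class, with 52 genes, 22 higher and 30 lower. They made up 27.8% of the higher and 24.6% of the lower genes, against 11.9% of the 1374 Gm and Rik genes at 1 CPM or more whose groups overlapped. The 45 protein-coding genes divided into 12 higher and 33 lower, the 35 lincRNA genes into 13 and 22, and the 22 antisense genes into 14 and 8. The 19 processed transcripts divided into 8 and 11 and the 19 pseudogenes of all types into 10 and 9. The 5 sense-intronic and the 4 bidirectional-promoter RNA genes all lay in the lower set. Pseudogenes made up 12.7% of the higher and 7.38% of the lower genes against 21.9% of the genes with overlapping groups. These shares are descriptions.

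**Figure D3:**
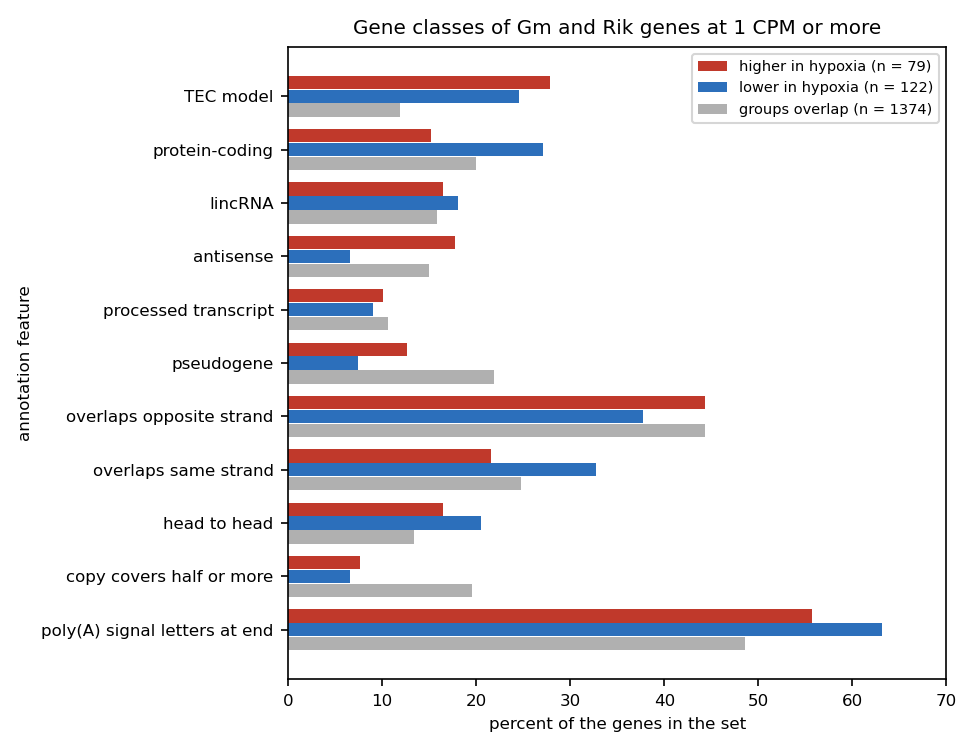
Percent of genes (horizontal axis) with each annotation feature (vertical axis) among the 79 higher, the 122 lower and the 1374 Gm and Rik genes with overlapping groups. TEC models take 27.8% and 24.6% of the separating sets against 11.9% of the rest.

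The largest increases were in TEC models. Gm37310 (chromosome 15, 8652106 to 8655073, minus strand) gave 5.55, 5.52, 7.12 and 3.68 CPM in hypoxia and 1.08, 1.64, 0.883 and 1.11 CPM in normoxia, a fitted log2 fold change of 2.23 ± 0.25 (SE). The lowest hypoxic library held more than double the CPM of the highest normoxic one. Gm37310 lies on the same strand inside Slc1a3, the glutamate transporter of astrocytes, without touching its exons. Slc1a3 was counted at 756, 693, 749 and 774 CPM in hypoxia and at 636, 803, 733 and 728 CPM in normoxia, with overlapping groups (log2 0.06 ± 0.07 SE, edgeR adjusted p = 0.676).

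Gm43279 (chromosome 5, 66688882 to 66691393, plus strand) gave 6.51, 6.94, 6.12 and 2.68 CPM in hypoxia and 1.36, 0.954, 1.35 and 1.57 CPM in normoxia (log2 2.11 ± 0.31 SE). It starts 1648 bases downstream of Uchl1, the ubiquitin hydrolase abundant in neurons, on the same strand. Uchl1 had overlapping groups, 609, 586, 552 and 556 CPM against 565, 435, 553 and 526 CPM, lowest in normoxia 2 (log2 0.17 ± 0.08 SE, edgeR adjusted p = 0.265).

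Gm45221 (chromosome 7, 90185927 to 90188198, plus strand) gave 3.73, 4.89, 3.97 and 2.19 CPM in hypoxia and 1.12, 0.848, 0.883 and 0.876 CPM in normoxia (log2 2.00 ± 0.26 SE). It lies inside Picalm, a clathrin assembly protein gene, again without touching an exon. Picalm was counted at 197, 226, 197 and 201 CPM against 202, 190, 194 and 196 CPM, with overlapping groups (log2 0.09 ± 0.06 SE, edgeR adjusted p = 0.396).

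Gm49759 (chromosome 9, 59672814 to 59676700, plus strand) was the most abundant of the 10 genes with the largest increases. It gave 50.7, 51.0, 54.4 and 29.0 CPM in hypoxia and 19.7, 20.6, 17.4 and 20.7 CPM in normoxia (log2 1.26 ± 0.18 SE), with hypoxia 4 well below hypoxia 1 to 3. The model shares 767 exonic bases with Pkm, the glycolytic enzyme pyruvate kinase, on the same strand, so reads in the shared bases belong to either gene. Pkm gave 1103, 1162, 1025 and 1121 CPM in hypoxia and 1102, 998.5, 1045 and 989.9 CPM in normoxia, with overlapping groups (log2 0.12 ± 0.06 SE, edgeR adjusted p = 0.283).

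Other TEC models with large increases were Gm38299 inside Garnl3, which gave 4.02, 3.94, 4.54 and 2.14 CPM against 0.982, 0.795, 1.65 and 1.75 CPM (log2 1.53 ± 0.30 SE), and Gm44829. Gm44829 lies opposite Snhg14, the long RNA that runs antisense to the imprinted gene Ube3a in neurons, and gave 1.29, 1.73, 2.01 and 1.24 CPM against 0.234, 0.901, 0.588 and 0.645 CPM (log2 1.44 ± 0.34 SE). Inside Ptbp2, a neuronal splicing regulator, Gm43300 gave 6.03, 5.73, 6.16 and 6.80 CPM against 3.13, 3.87, 2.47 and 3.83 CPM (log2 0.91 ± 0.16 SE). Here hypoxia 4 was the highest of the 4 hypoxic libraries. Gm45718, inside the signal peptidase gene Sec11a, gave 4.12, 3.84, 4.49 and 3.33 CPM against 1.54, 1.96, 2.29 and 2.35 CPM (log2 0.98 ± 0.17 SE). Gm37755, opposite Kansl1l, gave 2.25, 1.63, 2.05 and 1.94 CPM against 0.982, 0.742, 0.647 and 1.198 CPM (log2 1.15 ± 0.22 SE).

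TEC models also led the decreases. Gm44256 (chromosome 7, 3337545 to 3337879, plus strand), inside the calcium channel subunit gene Cacng7, gave 1.197, 0.473, 0.860 and 1.24 CPM in hypoxia and 2.24, 2.81, 2.71 and 1.75 CPM in normoxia (log2 -1.29 ± 0.29 SE). These values rest on 9 to 53 counts per library. Cacng7 was also lower without overlap, at 139, 131, 136 and 135 CPM in hypoxia and 160, 197, 140 and 145 CPM in normoxia. It did not pass the test (log2 -0.22 ± 0.10 SE, edgeR adjusted p = 0.276). Gm43759 (chromosome 5, 112367212 to 112368472, plus strand) gave 1.68, 1.21, 1.82 and 2.73 CPM against 3.88, 5.03, 4.00 and 4.61 CPM (log2 -1.21 ± 0.23 SE). Its host Hps4, needed for lysosome-related organelles, fell too, from 28.2, 26.8, 28.2 and 25.7 CPM in normoxia to 22.7, 20.4, 21.3 and 22.6 CPM in hypoxia (log2 -0.30 ± 0.06 SE, edgeR adjusted p = 0.0490).

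Gm38057, inside the transcription factor gene Tcf12, gave 0.910, 0.578, 1.24 and 0.646 CPM against 1.96, 1.70, 2.53 and 1.80 CPM (log2 -1.20 ± 0.26 SE). Gm43272, inside the phospholipid enzyme gene Cds1, gave 1.72, 0.683, 0.669 and 2.14 CPM against 2.57, 3.44, 2.65 and 2.49 CPM (log2 -1.07 ± 0.35 SE), a spread of over 3 times among its hypoxic libraries. Gm37174, opposite the sterol regulator gene Insig2, gave 0.814, 0.736, 0.765 and 0.795 CPM against 1.496, 1.17, 2.12 and 1.71 CPM (log2 -1.02 ± 0.21 SE). Its hypoxic libraries lay within a narrow band. Gm43719 starts 1470 bases downstream of the axon guidance gene Sema3a and gave 0.431, 0.789, 0.812 and 0.695 CPM against 1.03, 1.75, 1.18 and 1.38 CPM (log2 -0.94 ± 0.26 SE). Gm44168, inside Gm5577, was more abundant and differed by less, with 11.7, 10.5, 9.94 and 11.1 CPM against 13.3, 13.9, 16.8 and 15.03 CPM (log2 -0.42 ± 0.09 SE).

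**Figure D4:**
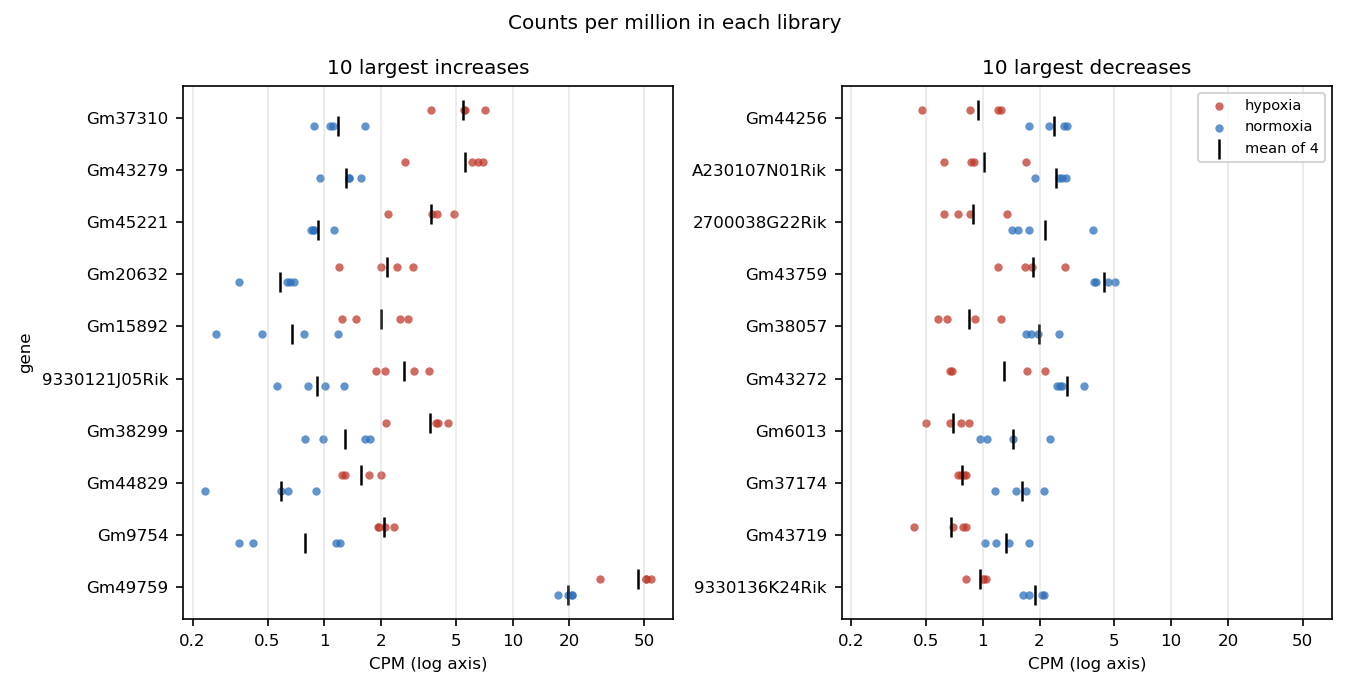
CPM in each library (horizontal, log axis) of the 10 genes with the largest fitted increases (left) and decreases (right), with hypoxic libraries in red, normoxic ones in blue and the mean of each 4 as a bar. The groups are separate in every gene by the choosing rule, and Gm49759 at 17.4 to 54.4 CPM lies far above the others in level.

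Because the kit selects polyadenylated RNA, the last 50 bases of several TEC models are shown, read from the GENCODE M21 transcripts (GRCm38) in the direction of transcription. Capitals mark the poly(A) signal letters AATAAA or ATTAAA, searched on the transcript's own strand only, which do not overlap each other here. Gm37310, Gm43279 and Gm45221 had the largest increases, Gm44829 is 1 of the 10 higher models with the signal, and Gm43759 and Gm37174 are among the lower models with it.
Gm37310: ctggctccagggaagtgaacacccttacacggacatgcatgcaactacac
Gm43279: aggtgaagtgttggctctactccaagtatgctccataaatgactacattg
Gm45221: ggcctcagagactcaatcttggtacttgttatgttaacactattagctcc
Gm44829: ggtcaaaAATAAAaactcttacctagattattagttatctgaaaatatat
Gm43759: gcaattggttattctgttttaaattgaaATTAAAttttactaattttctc
Gm37174: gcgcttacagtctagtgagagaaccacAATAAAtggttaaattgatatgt
The 3 models with the largest increases hold neither hexamer in this window. The same was true of Gm38299, which was higher, and of Gm44256, Gm38057, Gm43272 and Gm43719, which were lower. Over all TEC models the letters occurred in 10 of 22 higher genes (45.5%), 16 of 30 lower genes (53.3%) and 74 of the 164 with overlapping groups (45.1%). Over all Gm and Rik genes at 1 CPM or more the share was 50.1%. A match is a string of letters and not a measured cleavage site.

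Of the TEC models 10 of 22 higher and 20 of 30 lower ones overlapped a gene on the same strand, tested or not. For 27 of the 52 TEC models a same-strand gene was the counted neighbour. That is the tested overlapping or head-to-head gene with the highest mean CPM. Of these 27 models 25 lay within that gene without touching its exons. The middle of the higher models fell at a median of 81.4% of the host's length from its start (63.0% to 93.5%, 10 models), and that of the lower models at 70.1% (13.5% to 95.9%, 17 models). The fitted log2 change of the host had the sign of the model in 22 of the 27. Host changes were small, with a median of 0.09 for hosts of higher models, whose own median was 1.07, and -0.12 for hosts of lower models, whose own median was -0.62. Hps4 was the only one of the 27 hosts called. Reads of a host transcript and of a model inside it on the same strand cannot be told apart under any strand setting. The strand setting of the counting is not given in the sources used here. Reads of genes that overlap on opposite strands therefore cannot be told apart either.

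**Figure D5:**
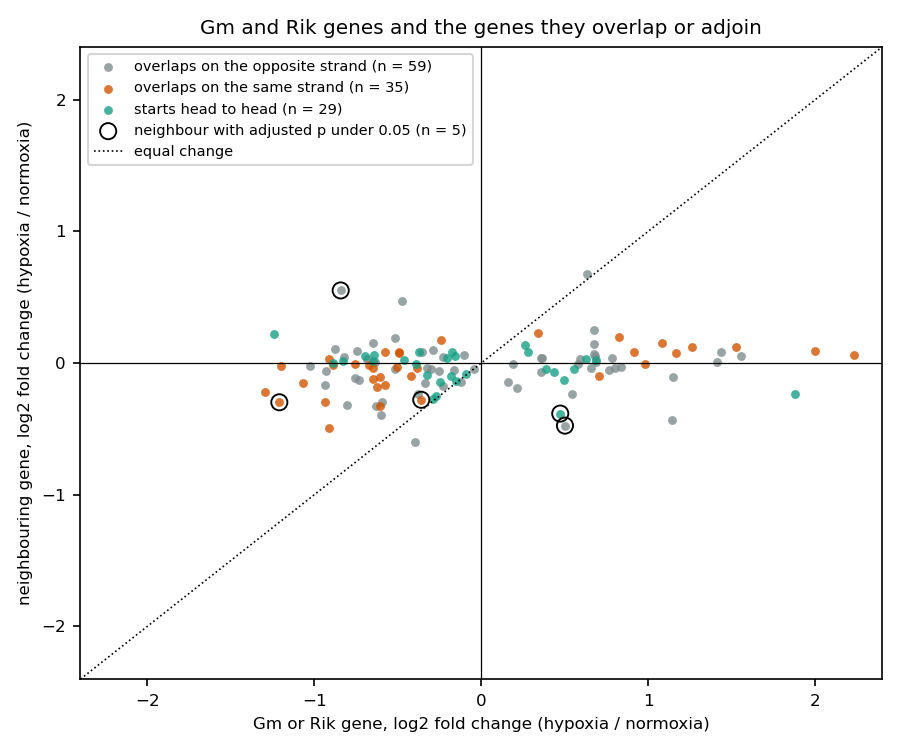
Fitted log2 fold change of each Gm or Rik gene (horizontal axis) and of the tested gene that it overlaps or starts next to (vertical axis), 123 pairs, coloured by arrangement. Where a gene has several such neighbours, the one with the highest mean CPM is shown. Most points lie along the horizontal line at 0, far from the dotted line of equal change, and the 5 ringed neighbours had an edgeR adjusted p under 0.05.

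Over all arrangements 123 of the 201 genes had a tested neighbour. For each gene only the neighbour with the highest mean CPM was counted. The counted neighbours overlapped on the opposite strand (59), overlapped on the same strand (35) or started head to head within 1000 bases (29). The neighbour's change had the same sign in 73 of the 123. Same signs were counted in 28 of 35 same-strand pairs, 33 of 59 opposite-strand pairs and 12 of 29 head-to-head pairs. The median within-group correlation of a pair, over 8 libraries after removing the group means, was 0.20 (-0.80 to 0.91). The 2 genes of a pair share these libraries and their depth.

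Of the neighbours 5 were called, Hps4, Hinfp, Lysmd4, Dusp11 and Abhd18, and 2 of the 5 had the sign of their Gm or Rik gene. Each of the 5 was called in 2 of the 8 fits that left out 1 library (without normoxia 2 or without hypoxia 4) and kept its sign in all 8, with the largest adjusted p at 0.169 for Hps4. Hinfp, a transcription factor of histone H4 genes, fell from 27.9, 30.4, 30.1 and 30.3 CPM in normoxia to 24.8, 23.3, 23.9 and 24.1 CPM in hypoxia (log2 -0.28 ± 0.05 SE, edgeR adjusted p = 0.0400). The lincRNA Gm48604, which shares 24 exonic bases with it, was lower as well, with 4.93, 4.68, 4.35 and 5.07 CPM against 6.45, 6.57, 5.94 and 5.85 CPM (log2 -0.36 ± 0.11 SE).

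Dusp11, an RNA phosphatase gene, fell from 146, 137, 159 and 147 CPM in normoxia to 107, 101, 91.5 and 117 CPM in hypoxia (log2 -0.48 ± 0.07 SE, edgeR adjusted p = 0.0213). Its antisense gene Gm19265 was higher in hypoxia, with 1.29, 1.26, 1.67 and 1.29 CPM against 0.655, 1.11, 1.06 and 1.15 CPM (log2 0.50 ± 0.22 SE). Abhd18 showed the reverse pattern and rose from 24.3, 26.1, 25.8 and 25.3 CPM in normoxia to 37.8, 39.1, 38.8 and 30.4 CPM in hypoxia (log2 0.55 ± 0.09 SE, edgeR adjusted p = 0.0213). Gm44136, on the strand opposite Abhd18, was lower, with 1.01, 1.05, 1.003 and 0.596 CPM against 1.92, 1.64, 1.65 and 1.48 CPM (log2 -0.84 ± 0.22 SE).

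Lysmd4 fell from 30.6, 31.8, 33.5 and 31.6 CPM to 25.1, 22.3, 21.3 and 27.2 CPM (log2 -0.38 ± 0.08 SE, edgeR adjusted p = 0.0462), while both Gm and Rik genes beside it were higher. 1700112J16Rik starts head to head with it at a distance of 8 bases and gave 2.82, 2.79, 2.82 and 3.23 CPM against 2.06, 1.70, 2.29 and 2.49 CPM (log2 0.47 ± 0.15 SE). Gm44667, a TEC model opposite Lysmd4 and inside the transcription factor gene Mef2a, gave 2.68, 2.52, 2.05 and 2.43 CPM against 1.496, 1.59, 1.41 and 1.52 CPM (log2 0.71 ± 0.15 SE). Mef2a did not pass the test (log2 -0.10, edgeR adjusted p = 0.701).

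Arid4a and Klf15 stand near a Gm or Rik gene without being among the 123 counted neighbours, and both were called, likewise in 2 of the 8 fits that left out 1 library. Psma3, opposite 3110056K07Rik and at a higher mean CPM, was counted in place of Arid4a. Genes that only end upstream on the same strand, such as Klf15, were not counted. Arid4a, a chromatin gene head to head with 3110056K07Rik at 158 bases, fell from 44.0, 46.8, 45.6 and 46.8 CPM to 33.6, 29.9, 33.4 and 39.2 CPM (log2 -0.40 ± 0.08 SE, edgeR adjusted p = 0.0369). 3110056K07Rik was lower too, with 4.50, 4.68, 5.02 and 6.80 CPM against 7.57, 8.37, 8.89 and 8.44 CPM (log2 -0.64 ± 0.14 SE), and both genes were highest in hypoxia 4 among the hypoxic libraries. Klf15, a transcription factor known to respond to glucocorticoids, ends 3228 bases upstream of the lincRNA Gm44421 and rose from 25.5, 27.8, 21.2 and 21.5 CPM to 38.7, 39.2, 40.1 and 34.0 CPM (log2 0.69 ± 0.11 SE, edgeR adjusted p = 0.0213). Gm44421 was higher by less, with 4.596, 3.94, 4.16 and 4.77 CPM against 3.79, 2.65, 3.18 and 3.87 CPM (log2 0.39 ± 0.15 SE).

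Among the 201 genes, 14 of the 22 antisense genes were higher in hypoxia and 8 were lower. Their median log2 fold changes were 0.69 and -0.67. Antisense genes were thus 14 of the 79 higher and 8 of the 122 lower genes. A further 206 antisense genes were among the 1374 Gm and Rik genes whose groups overlapped. The choosing rule picked the 22, so these counts describe the chosen genes and not antisense genes in general. Gm20632 and Gm20633 lie 1731 bases apart on chromosome 3, on opposite strands among histone genes. Gm20632, which starts 266 bases from the histone H3 gene Hist2h3c2, gave 2.44, 2.00, 2.96 and 1.19 CPM against 0.655, 0.636, 0.353 and 0.691 CPM (log2 1.88 ± 0.32 SE). Gm20633 gave 3.21, 3.31, 3.58 and 2.33 CPM against 1.31, 1.64, 1.29 and 1.47 CPM (log2 1.14 ± 0.18 SE). Gm20634, which shares 827 exonic bases with Gm20633 on the other strand, did not pass the test (log2 -0.43, edgeR adjusted p = 0.287). Gm20632 and Gm20633 were both lowest in hypoxia 4 among the hypoxic libraries, and their deviations within groups had a correlation of 0.83 over the 8 libraries. Hist2h3c2 did not pass the test and had overlapping groups at 0.862 to 1.39 CPM in hypoxia and 1.0003 to 2.07 CPM in normoxia (log2 -0.24, edgeR adjusted p = 0.671).

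9330121J05Rik shares 2189 exonic bases with Arhgef26 on the other strand and gave 3.59, 2.10, 3.01 and 1.89 CPM against 0.561, 1.27, 0.824 and 1.01 CPM (log2 1.55 ± 0.29 SE). Gm9754 shares 1845 with the ubiquitin ligase gene Fbxw8 and gave 2.35, 2.10, 1.96 and 1.94 CPM against 0.421, 1.22, 0.353 and 1.15 CPM (log2 1.41 ± 0.35 SE). Normoxia 2 and 4 of Gm9754 stood well above normoxia 1 and 3. Gm37885, which shares 1717 with the calpain gene Capn2, gave 12.02, 12.4, 10.4 and 9.44 CPM against 7.57, 7.84, 7.06 and 5.58 CPM (log2 0.68 ± 0.14 SE). None of Arhgef26 (edgeR adjusted p = 0.820), Fbxw8 (0.946) and Capn2 (0.649) passed the test.

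The largest antisense decrease was that of A230107N01Rik, which starts 121 bases from Tmem161b. It gave 0.862, 0.894, 0.621 and 1.69 CPM in hypoxia and 2.52, 2.76, 2.65 and 1.89 CPM in normoxia (log2 -1.24 ± 0.29 SE), with hypoxia 4 close to normoxia 4. Tmem161b did not pass the test and differed in the other direction (log2 0.22, edgeR adjusted p = 0.193).

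Among lincRNA genes Gm15892 had the largest increase, with 2.78, 1.47, 2.53 and 1.24 CPM against 0.468, 0.265, 1.18 and 0.784 CPM (log2 1.62 ± 0.42 SE). A730020M07Rik separated more tightly, with 2.68, 3.15, 2.82 and 3.08 CPM against 1.73, 1.91, 1.94 and 1.84 CPM (log2 0.68 ± 0.13 SE). On the lower side 9330136K24Rik gave 1.01, 0.999, 0.812 and 1.04 CPM against 1.64, 2.12, 2.06 and 1.75 CPM (log2 -0.94 ± 0.18 SE). It shares 11 exonic bases with the zinc finger gene Zfp52 on the other strand (log2 -0.17, edgeR adjusted p = 0.501). It also shares 295 with the pseudogene CT010433.1 on the other strand, which gave 1.24, 0.841, 1.10 and 1.14 CPM against 1.54, 1.22, 1.82 and 1.34 CPM, with overlapping groups (log2 -0.42 ± 0.20 SE, edgeR adjusted p = 0.290).

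Further lower lincRNA genes were Gm45605, Gm16973 and Gm37494. Gm45605 gave 3.45, 2.94, 4.01 and 4.52 CPM against 5.84, 6.20, 6.94 and 6.45 CPM (log2 -0.74 ± 0.14 SE). Gm16973, which overlaps the silencing factor gene Mphosph8, gave 7.52, 8.15, 7.22 and 6.80 CPM against 8.84, 11.2, 11.8 and 11.5 CPM (log2 -0.52 ± 0.11 SE). Normoxia 1 of Gm16973 lay close to the hypoxic libraries. Gm37494, called Gm33989 in RefSeq, gave 31.2, 32.1, 29.4 and 38.7 CPM against 45.5, 45.8, 50.4 and 45.2 CPM (log2 -0.48 ± 0.08 SE). Gm37963, a sense-intronic gene inside the deubiquitinase gene Usp4, gave 4.02, 4.05, 4.06 and 4.97 CPM against 6.08, 6.84, 8.59 and 6.27 CPM (log2 -0.67 ± 0.14 SE).

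B230216N24Rik is a processed transcript that shares 188 exonic bases with Pam, the enzyme that amidates neuropeptides. It gave 13.6, 13.0, 14.0 and 8.10 CPM in hypoxia and 4.49, 7.63, 5.88 and 5.53 CPM in normoxia (log2 1.08 ± 0.21 SE), with hypoxia 4 just above normoxia 2. Pam was counted at 315 to 337 CPM in hypoxia and 239 to 358 CPM in normoxia, with overlapping groups (log2 0.16, edgeR adjusted p = 0.417).

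RefSeq promoters, 250 bases before to 50 after the annotated start, could be matched for 72 of the 201 genes, 80 promoters in all. Those of a microRNA host, of the processed transcript in Pam and of the antisense gene at Tmem161b are shown as examples. They are given from GRCm38.p6 on the gene's own strand, at chr1:195017149-195017448 (plus), chr1:98047744-98048043 (minus) and chr13:84222126-84222425 (minus). The RefSeq starts of A330023F24Rik and B230216N24Rik lie inside the counted models, which run from 194976375 to 195037904 and from 98031116 to 98057680, so these windows are not at the starts of those models. Capitals mark ACGTG, the core letters bound by hypoxia-inducible factors, searched on both strands (reverse complement CACGT).
A330023F24Rik: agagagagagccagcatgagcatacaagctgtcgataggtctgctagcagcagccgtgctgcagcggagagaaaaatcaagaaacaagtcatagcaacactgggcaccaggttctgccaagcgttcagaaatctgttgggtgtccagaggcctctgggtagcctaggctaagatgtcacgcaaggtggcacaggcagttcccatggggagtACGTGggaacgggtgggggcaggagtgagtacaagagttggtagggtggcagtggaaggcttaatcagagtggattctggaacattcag
B230216N24Rik: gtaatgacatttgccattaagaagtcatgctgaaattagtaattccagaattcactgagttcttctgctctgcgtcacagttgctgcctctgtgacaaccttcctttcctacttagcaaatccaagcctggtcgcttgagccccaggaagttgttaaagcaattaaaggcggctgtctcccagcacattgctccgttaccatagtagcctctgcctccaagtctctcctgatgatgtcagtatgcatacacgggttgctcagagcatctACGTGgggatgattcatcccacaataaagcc
A230107N01Rik: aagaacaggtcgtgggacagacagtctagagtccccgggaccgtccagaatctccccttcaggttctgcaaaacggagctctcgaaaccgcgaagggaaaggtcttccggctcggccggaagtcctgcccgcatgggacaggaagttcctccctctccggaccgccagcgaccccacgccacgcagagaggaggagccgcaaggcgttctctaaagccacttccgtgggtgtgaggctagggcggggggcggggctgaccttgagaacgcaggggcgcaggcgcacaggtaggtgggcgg
ACGTG begins at base 212 of the first promoter and base 270 of the second and is not in the third. The promoters of Gm7972 and 2700038G22Rik, also read but not shown, hold no ACGTG. These letters were present in 15 of the 80 promoters (18.8%), 10% of those of higher and 24% of those of lower genes, against 19.6% of all 32817 RefSeq promoters. The other common core, GCGTG (reverse complement CACGC), was present in 47.5% (53.3% of the higher and 44.0% of the lower genes' promoters) against 32.4% of all promoters. A promoter can hold both, and the forward and reverse forms of ACGTG overlap in CACGTG. A match is a description and not a bound site.

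The 45 protein-coding genes showed small differences. The 12 higher ones ranged from 0.12 to 0.84 (median 0.47) and the 33 lower ones from -0.83 to -0.12 (median -0.33) on the log2 scale, and 2 of the former and 3 of the latter were called. 1700109H08Rik had the largest increase, with 8.19, 8.25, 9.84 and 6.41 CPM against 4.91, 4.40, 4.59 and 4.70 CPM (log2 0.84 ± 0.14 SE). 2410131K14Rik, which RefSeq names Spring1, a regulator of sterol-responsive transcription factors, gave 54.1, 53.7, 54.2 and 53.4 CPM against 44.3, 41.0, 48.4 and 47.0 CPM (log2 0.28 ± 0.05 SE). Its hypoxic libraries lay within 1 CPM of each other, hypoxia 4 included. The remaining higher genes were 4930590J08Rik, 4933408B17Rik (Brd8dc in RefSeq), 4930432K21Rik, Gm3604, 1700017B05Rik, Gm10643, E430018J23Rik, 2900026A02Rik, 5730455P16Rik and 2510009E07Rik.

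The largest decreases among coding genes were those of 5430403G16Rik, with 1.39, 1.05, 1.15 and 1.49 CPM against 2.48, 2.49, 2.06 and 2.17 CPM (log2 -0.83 ± 0.17 SE), and of Gm9958 (-0.83) and Gm13199 (-0.81), which were not called. 4921524J17Rik gave 5.07, 5.10, 4.78 and 5.27 CPM against 10.4, 7.68, 7.36 and 7.97 CPM (log2 -0.70 ± 0.13 SE), and 2610021A01Rik gave 14.5, 13.6, 14.6 and 18.5 CPM against 23.1, 21.6, 24.2 and 23.1 CPM (log2 -0.56 ± 0.10 SE). Normoxia 1 of 4921524J17Rik and hypoxia 4 of 2610021A01Rik stood above the rest of their groups. 

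The coding genes with the most counts differed by small amounts. Those lower in hypoxia were 4833439L19Rik with 127, 133, 128 and 136 CPM against 147, 147, 144 and 142 CPM (log2 -0.12 ± 0.04 SE) and 9330159F19Rik with 83.4, 82.0, 83.4 and 91.6 CPM against 95.8, 109, 102 and 93.9 CPM (log2 -0.21 ± 0.06 SE). E330009J07Rik, which RefSeq names Dennd11, gave 76.5, 86.9, 77.6 and 90.2 CPM against 102, 102, 95.1 and 92.6 CPM (log2 -0.22 ± 0.07 SE), and hypoxia 4 came close to normoxia 4. 1810013L24Rik gave 50.9, 49.6, 53.9 and 58.9 CPM against 64.4, 59.6, 63.4 and 59.4 CPM (log2 -0.19 ± 0.06 SE), again with hypoxia 4 nearest.

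Those higher in hypoxia were 5730455P16Rik with 102, 101, 103 and 99.8 CPM against 98.3, 82.9, 94.6 and 98.7 CPM (log2 0.14 ± 0.06 SE), 2510009E07Rik with 90.2, 91.6, 91.6 and 89.7 CPM against 85.8, 84.8, 81.0 and 87.6 CPM (log2 0.12 ± 0.04 SE) and 2900026A02Rik with 58.7, 55.7, 62.6 and 49.2 CPM against 47.2, 48.7, 47.7 and 46.9 CPM (log2 0.27 ± 0.07 SE). Normoxia 2 was far below the other libraries of 5730455P16Rik, and hypoxia 4 of 2900026A02Rik lay just above normoxia 2.

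The remaining lower coding genes, all between -0.73 and -0.12, were Gm49396, Gm527, A630089N07Rik, 2610008E11Rik, C130074G19Rik, 9030025P20Rik, 1110038F14Rik, B230307C23Rik, Gm3854, 4930503L19Rik, Gm10037, Gm35339, Gm10767, 1110012L19Rik (Eola1), 0610037L13Rik (Czib), 2310033P09Rik, A430005L14Rik, 2610001J05Rik, 4930430F08Rik, 9430015G10Rik, 2310022A10Rik, 8030462N17Rik, 1810037I17Rik and E130309D02Rik.

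Among the coding genes 7 hold at least 3 matches to the Cys2His2 zinc finger pattern, typical of DNA-binding factors that often act as repressors. Matches were counted in whole transcripts translated in the 3 forward frames, taking the frame with the most, and not in the annotated reading frame. Of these 7 genes, 5430403G16Rik, 2610021A01Rik, 2610008E11Rik, A630089N07Rik and Gm3854 were lower and E430018J23Rik and Gm3604 higher. 2610008E11Rik gave 25.7, 27.9, 27.4 and 34.4 CPM against 37.0, 56.8, 42.8 and 38.6 CPM (log2 -0.58 ± 0.14 SE), highest in normoxia 2. Of all 535 genes at 1 CPM or more with that many patterns, 29.7% were lower and 2.06% higher without overlap, 159 and 11 genes.

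Processed pseudogenes resemble the mRNA they came from, and their reads can be split with it by the counting. Gm12966, a copy of the splicing factor gene Srsf5 (98.6% identity over 813 bases), gave 14.0, 13.8, 14.9 and 13.3 CPM against 10.7, 9.59, 11.4 and 9.68 CPM (log2 0.46 ± 0.08 SE), while Srsf5 did not pass the test and differed in the other direction (log2 -0.22, edgeR adjusted p = 0.0821). Gm2999, a copy of the translation factor gene Eif4a2 (99.3% over 307 bases), gave 12.7, 14.3, 12.9 and 13.6 CPM against 8.88, 10.5, 10.8 and 10.8 CPM (log2 0.41 ± 0.09 SE). Eif4a2 did not pass the test (log2 0.10, edgeR adjusted p = 0.181). Of the 201 genes 64 had a stretch of at least 100 bases with 95% identity to another gene's transcript, and in 14 it covered at least 50% of the longest transcript. These 14 values are uncertain for that reason.

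Other pseudogenes lacked such a copy. Gm7972, 2184 bases downstream of Leo1, gave 4.88, 3.21, 4.16 and 2.83 CPM against 1.68, 1.75, 1.77 and 1.89 CPM (log2 1.11 ± 0.19 SE). 1700086L19Rik gave 14.99, 14.1, 14.96 and 14.3 CPM against 10.8, 12.7, 11.1 and 11.5 CPM (log2 0.37 ± 0.08 SE). On the lower side Gm6013 gave 0.766, 0.841, 0.669 and 0.497 CPM against 1.45, 2.28, 1.06 and 0.968 CPM (log2 -1.02 ± 0.32 SE), highest in normoxia 2.

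Several of the genes lie close together, with 9 adjacent pairs less than 100000 bases apart, 8 of them in the same direction. On chromosome 7 the TEC models 9330162G02Rik and Gm44559, opposite Ube3a, and Gm44829, opposite Snhg14, were all higher. 9330162G02Rik gave 29.9, 32.5, 31.2 and 34.0 CPM against 27.8, 28.9, 28.7 and 28.6 CPM (log2 0.19 ± 0.06 SE), and Gm44559 gave 3.97, 4.05, 4.44 and 3.53 CPM against 2.76, 2.23, 3.30 and 2.63 CPM (log2 0.58 ± 0.15 SE). Gm44831, on the strand of Snhg14, was lower, with hypoxia 4 and normoxia 1 both at a rounded 1.59 CPM (log2 -0.58 ± 0.22 SE). The exception among the pairs was Gm28455, higher, beside Gm37494, lower.

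The pairs most alike in their deviations within groups, outside a shared locus, were Gm3854 with Gm45605 (correlation 0.99), E330009J07Rik with 4833439L19Rik (0.99) and 2610008E11Rik with Gm4285 (0.98), each over 8 libraries that share depth. The last pair differed in direction between the groups. These pairs were picked as the highest in a search over all 20100 pairs of members, whose median correlation was 0.01. What such a search gives by itself was not tested.

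At the limit of 1 CPM, Gm4849 (1.002), Gm43719 (1.01) and Gm6013 (1.07) were just inside and Gm10644 (0.996), Gm44257 (0.989) and Gm43609 (0.988) just outside. The groups of Gm44831, 1810037I17Rik and 1500004A13Rik were separated by the smallest gaps, and those of 9330171B17Rik, Gm7266 and 2900097C17Rik overlapped by the least. 1500004A13Rik illustrates how small a separating difference can be, with 47.5, 43.3, 47.8 and 47.3 CPM against 49.4, 48.3, 49.3 and 47.9 CPM (log2 -0.04 ± 0.05 SE).

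The share of counts on all 29466 Gm and Rik genes was 1.67% ± 0.0154 (SD, n = 4) in hypoxia and 1.70% ± 0.0315 (SD, n = 4) in normoxia. The difference of -0.0281 percentage points is a description, since the sum includes the 201 genes chosen on the same contrast. It was -0.0425 points without normoxia 1 and -0.0314 to -0.0201 points in the other 7 omissions of 1 library.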

How the data were processed

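Hypothalamic RNA of 4 hypoxic and 4 normoxic C57BL/6J mice was sequenced. The deposited values are raw read counts for each Ensembl gene, which the authors made with Trimmomatic, HISAT2 2.0.4, HISAT, SAMtools and featureCounts on mm10, with DESeq2 also named, per the submitters' processing notes. Annotation release, strand setting and multi-mapping treatment: not given in the sources used here. Columns were matched to libraries by their short names. Totals were 16994473 to 21694383 counts, so 1 count is 0.0461 to 0.0588 CPM.

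Symbols, classes and positions came from GENCODE M21, which held 55227 of the 55487 genes. CPM values are unscaled counts over column sums. Fold changes come from edgeR 4.0.16 (R 4.3.3; filterByExpr with minimum count 10 and total 15; TMM; quasi-likelihood F test; group only), adjusted over 17047 genes. Copies were searched with blastn 2.17.0. On simulated data of this comparison (17047 genes, 200 of them changed) the test recovered 37.4% of changes of 0.5 and 80.2% of changes of 1 on the log2 scale. The simulation included no outlying library, so these shares need not hold for the measured libraries.

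The members and lists were chosen with earlier results of these data known. Named with all libraries are the 10 largest increases and decreases, the 10 highest means and the called genes, the coding genes by name, and genes at the thresholds; other members were added for their locus. Alternatives covered scaling, filters, thresholds, DESeq2 1.42.0, limma-voom 3.58.1, a replicate block and leaving out libraries.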

Additional observations from a re-analysis of the deposited data

Results flagged for a closer look

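In the 102 groups of 4 libraries of the 51 genes named by rule, 10 had a library far from its group. The gap to the nearest other library was above Dixon's 95% value in each. No rate by chance is set beside this, since the genes were chosen on the contrast and share the same 8 libraries. Hypoxia 4 stood apart in Gm37963 (4.97 CPM), 9330159F19Rik (91.6 CPM), B230216N24Rik (8.10 CPM) and Gm49759 (29.0 CPM), each time on the normoxic side of its group. Normoxia 2 was high in 2700038G22Rik (3.87 CPM) and Gm43272 (3.44 CPM). Normoxia 3 was high in Gm37494 (50.4 CPM) and low in Gm20632 (0.353 CPM). Hypoxia 2 was low in 1500004A13Rik (43.3 CPM), and normoxia 1 was high in Gm45221 (1.12 CPM).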

How the results depend on the processing

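Without a minimum on the mean, 255 Gm and Rik genes were higher and 241 lower without overlap. Leaving out 1 library gave 94 to 131 higher and 142 to 213 lower genes, the most without hypoxia 4 (131 and 213), with 125 higher without normoxia 3. Leaving out normoxia 2 and hypoxia 4 together, chosen after seeing the data, gave 169 and 277; fewer libraries make overlap rarer by construction.

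The 21 higher and 12 lower edgeR calls became 48 and 43 at an adjusted p under 0.1, 1 and 0 under 0.01, 40 and 36 with DESeq2, and 19 lower with library size only. Leaving out 1 library gave 1 to 27 higher and 0 to 23 lower calls. Without hypoxia 4 there were 24 and 23 and without normoxia 2 27 and 16, but without hypoxia 1, hypoxia 2, hypoxia 3, normoxia 1, normoxia 3 or normoxia 4 there were 1 or 2 higher and 0 lower calls. Without normoxia 2 and hypoxia 4 together there were 31 and 31. Calls over the whole table moved in the same way, with 236 and 457 without hypoxia 4 and 329 and 346 without normoxia 2. They were 24 to 42 and 2 to 8 in the other omissions of 1 library, and 456 and 739 without both. Among the 33 called members only Gm37310 was called in all 8 fits that left out 1 library, and 31 of the 33 were called in 2 or fewer. The cause was not tested.

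With the replicate number as a block, 0 higher and 0 lower members were called, and 20 higher and 1 lower genes in the whole table, where 2768 had an unadjusted p under 0.05. Deviations of same-numbered libraries had correlations of 0.0375, -0.105, 0.0429 and -0.0279. The labels do not say whether a number marks a shared litter, batch or day, and these correlations cannot settle it.

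The difference in the share of counts was -0.0425 to -0.0201 points without 1 library. Of the 73 neighbours with the same sign, 2 were called. Copies were found for 13 genes at 99% identity, 31 over 200 bases and 14 covering 50% of the longest transcript. Of 714 values of named genes under alternatives, 248 lost and 18 gained their call, and 0 reversed. Of the 201 genes 124 lie under 5 CPM, where counting error is a larger part of the spread between libraries.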
